A study of Canis lupus familiaris with 23 samples.

Results

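Solute carriers are the membrane proteins that move sugars, amino acids, ions, metals, vitamins, bile acids and drugs into and out of cells and organelles. The genes described here were all those whose symbol begins with SLC and a digit or with SLCO, apart from SLC1A3 and SLC27A2, and that had a probe set annotated to 1 gene symbol on the canine array. This gave 124 genes out of 6540 genes with such a probe set. Each was read from 1 probe set, the one with the highest mean over all 23 samples, and 42 of the 124 had further probe sets. The genes were sorted by substrate into 16 classes, of which the largest were the mitochondrial carriers (17 genes), the amino acid carriers (16) and the carriers of organic anions, cations and bile acids (16). The rule goes by symbol, so it also took in genes that are no carriers. These include the scaffolds SLC9A3R1 (NHERF1) and SLC9A3R2 (NHERF2), and SLC2A4RG, a regulator of the GLUT4 gene. SLC27A5, which is also a bile acid coenzyme A ligase, was placed in the class of lipids and acyl groups.

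A carrier gives a cell access to a solute, and the set of carriers in a membrane follows the work of the tissue. In the proximal tubule of the kidney, sodium-coupled carriers of the brush border take back phosphate, lactate, citrate and amino acids from the filtrate, while organic ion carriers secrete drugs and metabolites. Hepatocytes take up bile acids and organic anions from the blood and release glucose, whereas proliferating cells are known for glucose carriers of the GLUT1 and GLUT3 type and for carriers that feed mitochondria.

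The 23 samples were 2 canine osteosarcoma cell lines, 15 primary osteosarcomas taken from dogs at surgery before any chemotherapy, and 2 samples each of normal kidney, normal liver and normal lymph node from dogs of a research colony. Total RNA of each was hybridized to a canine Affymetrix array, and the values are log2 expression values, on which a difference of 1 is a 2-fold change. Because each probe set has its own affinity, a level was compared between samples and never between genes. No normal bone was among these samples, the tumors were whole pieces of tissue that hold stroma, and each line was read from 1 sample. The study names its canine lines MC-KOSA and BW-KOSA, while the labels give other names. Which sample is which line is thus not known here. The study describes its normal tissue samples as biological replicates, neither pooled nor repeat assays of a single sample, while the labels do not name the dog behind each organ sample. The p-values measure the spread between these samples. In whole tissue, fewer cells of a type and less RNA per cell cannot be told apart.

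Arrays differed in how much signal was left at the 5′ end of transcripts. For the actin and Gapdh controls, signal at the 3′ end exceeded signal at the 5′ end by a mean amount called the 5′ index here, which was above 1.5 (low 5′ signal) on tumors 1, 4, 7, 8, 10, 12 and 14 and on replicate 1 of each organ, up to 6.45 on kidney 1. The organ labels were checked on marker genes. Of the 6 measured liver markers, ALB, CYP2E1 and SERPINC1 averaged 13.2, 13.5 and 12.5 in liver and at most 4.51 in any other group, and FGB averaged 9.71 in liver and at most 7.42 elsewhere. The other two did not mark liver alone, since APOC3 averaged 11.7 in kidney and 11.2 in liver, and TTR 9.32 in tumors and 9.74 in liver. Of the 4 measured kidney markers CUBN averaged 11.1 in kidney and at most 6.02 elsewhere, whereas the kidney markers UMOD (6.42 in kidney, at most 6.17 elsewhere) and LRP2 (5.39 in kidney, at most 5.31 elsewhere) did not stand out. AQP1 averaged 10.1 in tumors and 11.9 in kidney (adjusted p = 0.0191, not called). Of the lymph node markers only CD3E was measured, which averaged 8.94 in lymph node and at most 6.81 elsewhere.

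Carriers separated the organs from each other and from the tumors, and least of all the tumors from lymph node. Between tumors and kidney 30 of the 124 genes (24.2%) passed an adjusted p under 0.01 in limma, against 7.26% of all 23836 probe sets. Of these, 3 were higher in tumors, against 2.0% of all probe sets, and 27 were lower, against 5.26%. Between tumors and liver 22 genes (17.7%) passed, against 9.28% of all probe sets, with 3 higher (background 3.42%) and 19 lower (background 5.86%). Between tumors and lymph node 4 genes (3.23%) passed, against 4.24% of all probe sets, with 0 higher (background 1.33%) and 4 lower in tumors (background 2.91%). That share was near the background. The median difference over the 124 genes was -0.14 for tumor minus kidney, beside 0.01 over all probe sets. The typical carrier thus differed little. In these shares and those below, the 2 sets are unlike. Each carrier was read from its probe set of highest mean, while all probe sets include 13149 without a symbol. A share above the background thus cannot be credited to the carriers as such.

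Among the organs, kidney and liver differed in 21 carriers (16.9%, against 3.81% of all probe sets), 14 higher in kidney (background 1.69%) and 7 lower (background 2.11%). Kidney and lymph node differed in 20 (16.1%, against 5.66%), 17 higher in kidney (background 3.52%) and 3 lower (background 2.14%). Liver and lymph node differed in 17 (13.7%, against 6.78%), 14 higher in liver (background 3.96%) and 3 lower (background 2.82%). Cell lines and tumors differed in 11 (8.87%, against 6.27%), 9 higher in the lines (background 3.77%) and 2 lower (background 2.5%), a share not far from the background. These comparisons share samples, so each is given by its own values. Tests between 2 organs rest on 2 samples a side, and the spread they use is mostly that among tumors: with the organ number as a fixed block in the 6 organ samples alone, kidney and liver differed in 11 carriers and kidney and lymph node in 12, and with that number as a random block over all samples, in 31 and 32.

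**Figure D1:**
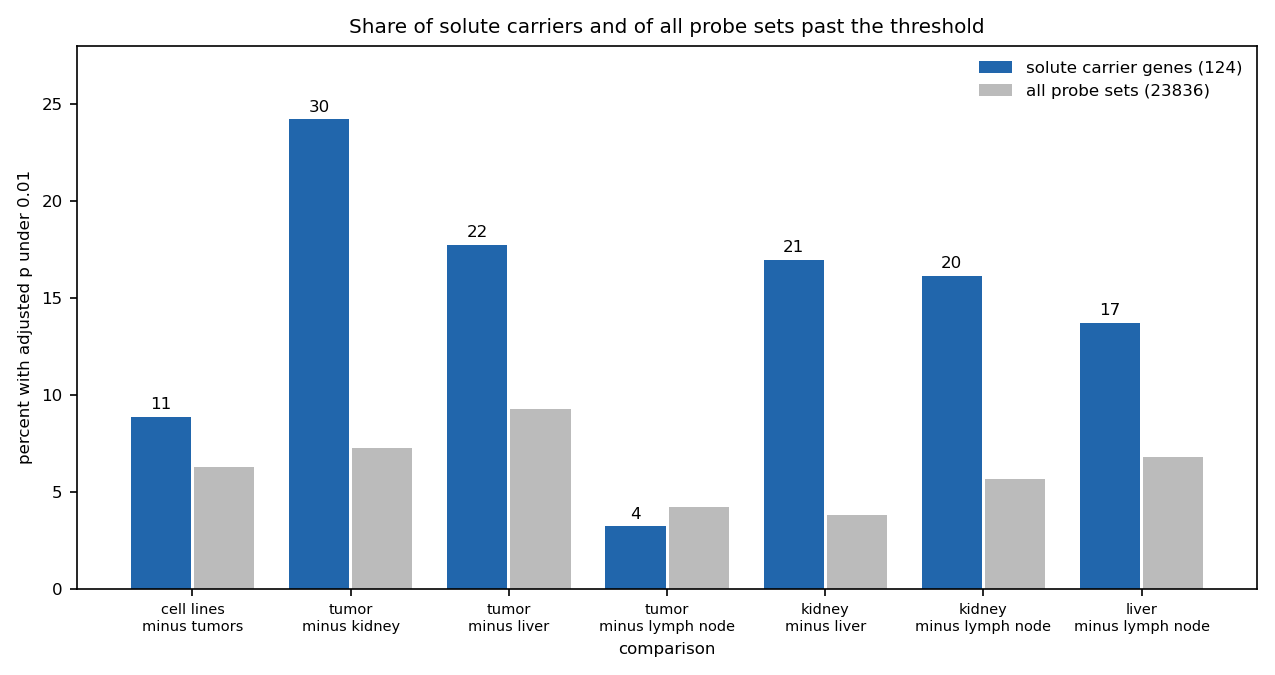
Percent of the 124 solute carriers (blue, with the number of genes on top) and of all 23836 probe sets (grey) with an adjusted p under 0.01 in each of 7 comparisons. The bars of the carriers exceed those of all probe sets by the most for tumor minus kidney (24.2% against 7.26%) and lie below them only for tumor minus lymph node (3.23% against 4.24%).

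Several carriers known from the kidney tubule were lower in tumors than in kidney. SLC5A12, the sodium-lactate cotransporter SMCT2 of the proximal tubule, had 3.75, 3.9 and 4.26 in tumors (lowest, median and highest of 15), against 10.19 and 10.61 in kidney, 3.95 and 4.34 in liver and 4.0 and 3.89 in lymph node. Every other group lay in one narrow low band, more than 5 log2 units below both kidneys. The tumor minus kidney difference was -6.45 ± 0.13 (SE; limma, adjusted p = 3.75e-19), and its 3 other probe sets gave -5.79, -3.88 and -2.81. The amino acid carrier subunit SLC3A1, the heavy chain rBAT of the renal cystine transporter, had 3.54, 4.17 and 5.46 in tumors, against 10.70 and 10.49 in kidney. Liver was in between at 6.83 and 7.24, and lymph node was at 4.96 and 4.70. The differences of SLC3A1 were -6.35 ± 0.32 for tumor minus kidney (adjusted p = 2.64e-12), -2.79 ± 0.32 for tumor minus liver (adjusted p = 1.11e-06) and 3.56 ± 0.42 for kidney minus liver (adjusted p = 3.37e-06).

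Carriers of organic anions and cations, which secrete drugs and urate, were among the lowest genes of the tumors relative to kidney: 6 of the 16 genes of this class (37.5%, against 7.26% of all probe sets) were lower and 0 higher (class median -0.44). SLC17A3, the organic anion and urate transporter NPT4, had 3.51, 3.77 and 4.07 in tumors, against 8.59 and 9.27 in kidney (-5.14 ± 0.21, adjusted p = 8.0e-14). SLC47A2, the cation and proton antiporter MATE2, had 3.33, 3.48 and 3.92 in tumors, against 6.83 and 7.61 in kidney (-3.64 ± 0.18, adjusted p = 4.01e-12). Liver and lymph node were at the low level of the tumors for both genes, apart from liver 1 for SLC17A3 (4.77). SLC22A10, of the organic anion transporter family, had 4.24, 4.44 and 4.73 in tumors, against 6.85 and 9.04 in kidney and 5.37 and 6.75 in liver. It was lower in tumors than in kidney by -3.47 ± 0.33 and than in liver by -1.59 ± 0.33, although without liver 2 the difference from liver was -0.90 and its call was lost (adjusted p = 0.232). SLC22A18 was lower in tumors than in kidney (-1.96 ± 0.15), and so was SLC10A2, the apical bile acid transporter (-1.26 ± 0.21), whose difference without kidney 2 was -0.55 and not called (adjusted p = 0.0400).

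Carriers of other classes were lower as well. SLC12A3, the thiazide-sensitive sodium-chloride cotransporter of the distal tubule, had 6.18, 6.51 and 6.82 in tumors, against 11.09 and 10.63 in kidney (-4.36 ± 0.14, adjusted p = 1.17e-15). SLC13A2, the citrate transporter NaDC1, had 6.10, 6.39 and 6.84 in tumors, against 9.96 and 9.99 in kidney (-3.59 ± 0.14, adjusted p = 3.22e-14). SLC30A2, the zinc transporter ZnT2, had 4.19, 4.37 and 4.78 in tumors, against 7.63 and 9.20 in kidney (-3.98 ± 0.24, adjusted p = 5.29e-11). In each of these genes no tumor, liver or lymph node sample reached either kidney. SLC15A2, the peptide transporter PEPT2, had 4.73, 4.95 and 5.26 in tumors, against 6.62 and 8.94 in kidney (-2.84 ± 0.33), and without kidney 2 its difference was -1.68. Its 2 other probe sets gave -4.55 and -0.23. SLC6A18, a neutral amino acid transporter of the renal brush border, differed by -2.16 ± 0.16.

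**Figure D2:**
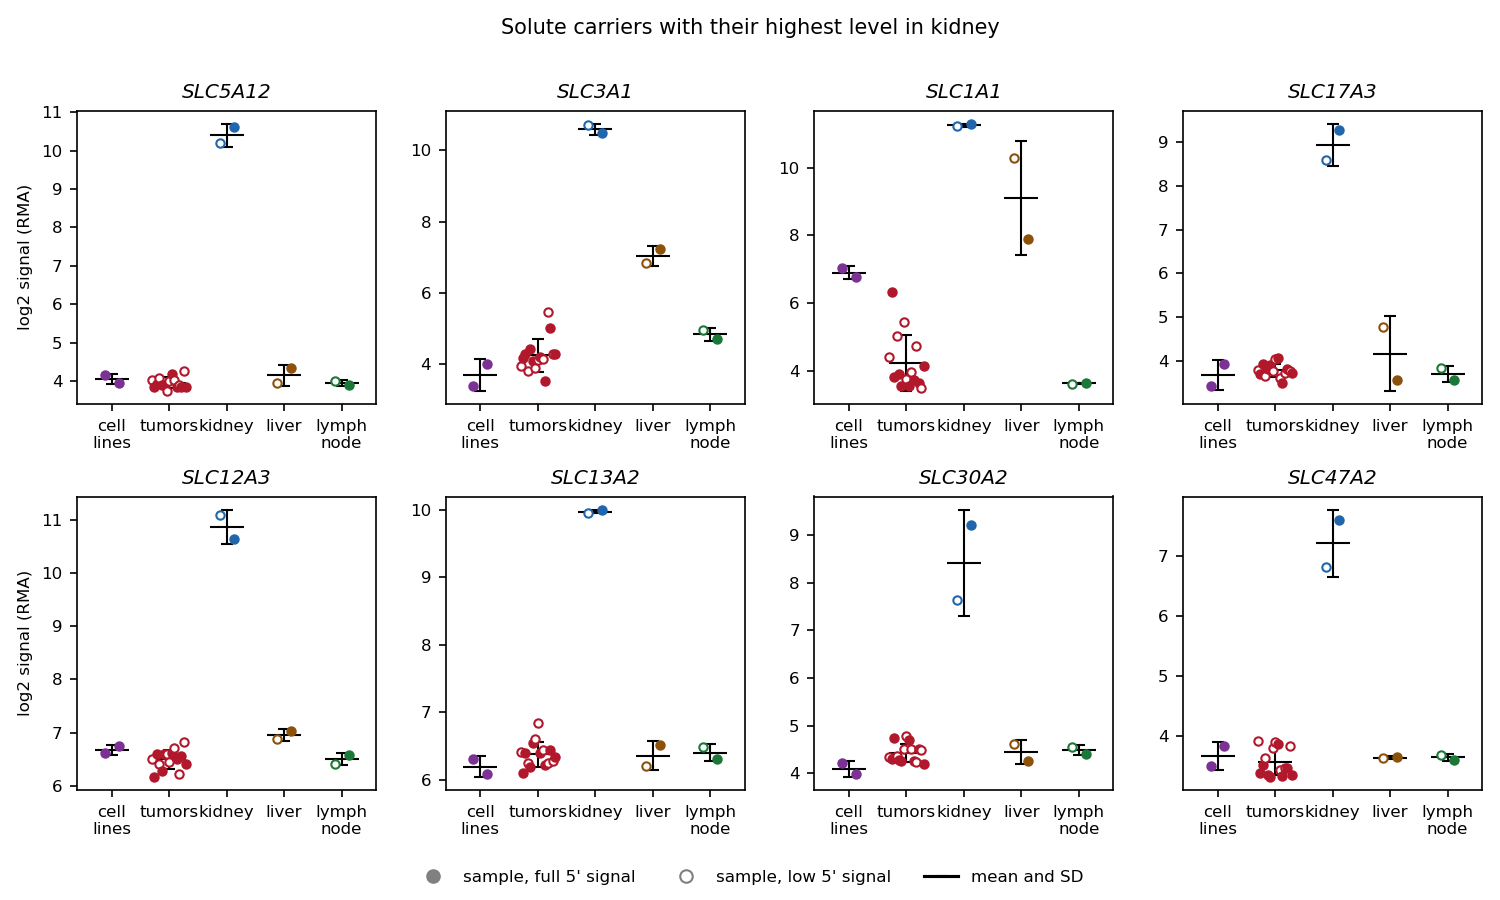
RMA log2 signal of 8 carriers (y axis, a scale of its own for each gene) in each sample of the 5 groups (x axis), with open circles for arrays with low 5′ signal and the mean and SD of each group in black. Kidney stands above all other samples in every panel, SLC3A1 and SLC1A1 are raised in liver as well, and SLC1A1 is at 7.03 and 6.77 in the cell lines.

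The 2 kidney samples did not give the same picture for every carrier. In 10 of the 124 genes (8.06%, against 3.73% of all probe sets) they differed by more than 2, and all 10 were higher in kidney 2. SLC16A4, of the monocarboxylate family, had 5.02 in kidney 1 and 9.39 in kidney 2, and SLC25A36, a mitochondrial pyrimidine nucleotide carrier, had 5.45 and 9.47. SLC22A2, the organic cation transporter OCT2, had 4.42, 4.72 and 5.13 in tumors, against 5.08 and 8.19 in kidney. SLC4A4, the sodium-bicarbonate cotransporter NBCe1, had 4.80, 5.14 and 5.44 in tumors, against 5.30 and 7.57 in kidney. In both genes kidney 1 lay within the range of the tumors and kidney 2 far above it. Each was called lower in tumors, SLC22A2 by -1.89 ± 0.40 (adjusted p = 0.00274) and SLC4A4 by -1.27 ± 0.31 (adjusted p = 0.00791). Without kidney 2 these differences were -0.33 (adjusted p = 0.467) and -0.14 (adjusted p = 0.816). With the organ number as a random block SLC4A4 had an adjusted p of 0.0198. In the fits with 1 sample left out, SLC4A4 lost its call in 14 of 23. Kidney 1 was the array with the highest 5′ index (6.45, against 0.63 on kidney 2), and the part of the 5′ signal in these gaps was not tested.

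For phosphate and organic anions the chosen probe set mattered more than the sample. SLC34A1, the renal sodium-phosphate cotransporter NaPi-IIa, had 5.79, 6.07 and 6.64 in tumors, against 6.19 and 9.40 in kidney, by its probe set of highest mean (-1.63 ± 0.42, adjusted p = 0.0125, not called). Another probe set of SLC34A1 had 3.61, 3.83 and 4.14 in tumors, against 11.78 and 11.86 in kidney, 4.30 and 3.95 in liver and 4.04 and 3.92 in lymph node. By that probe set SLC34A1 was lower in tumors by -8.0 ± 0.12 (adjusted p = 2.57e-21), and both kidneys agreed within 0.1. SLC22A6, the organic anion transporter OAT1, behaved alike. Its chosen probe set had 5.43, 5.70 and 6.32 in tumors, against 7.13 and 5.61 in kidney (-0.62 ± 0.24, adjusted p = 0.111). Another had 3.28, 3.37 and 3.93 in tumors, against 8.60 and 8.66 in kidney (-5.19 ± 0.14, adjusted p = 9.19e-17). These probe sets were singled out after their values were seen. In all, 3 carriers that were not called between tumors and kidney had another probe set that was, with SLC22A16 (-1.26 ± 0.29, adjusted p = 0.00546) as the third. Of the 21 other probe sets of the 30 called carriers, 13 were called in the same direction and 1 had the opposite sign, that of SLC2A9 (0.07).

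**Figure D3:**
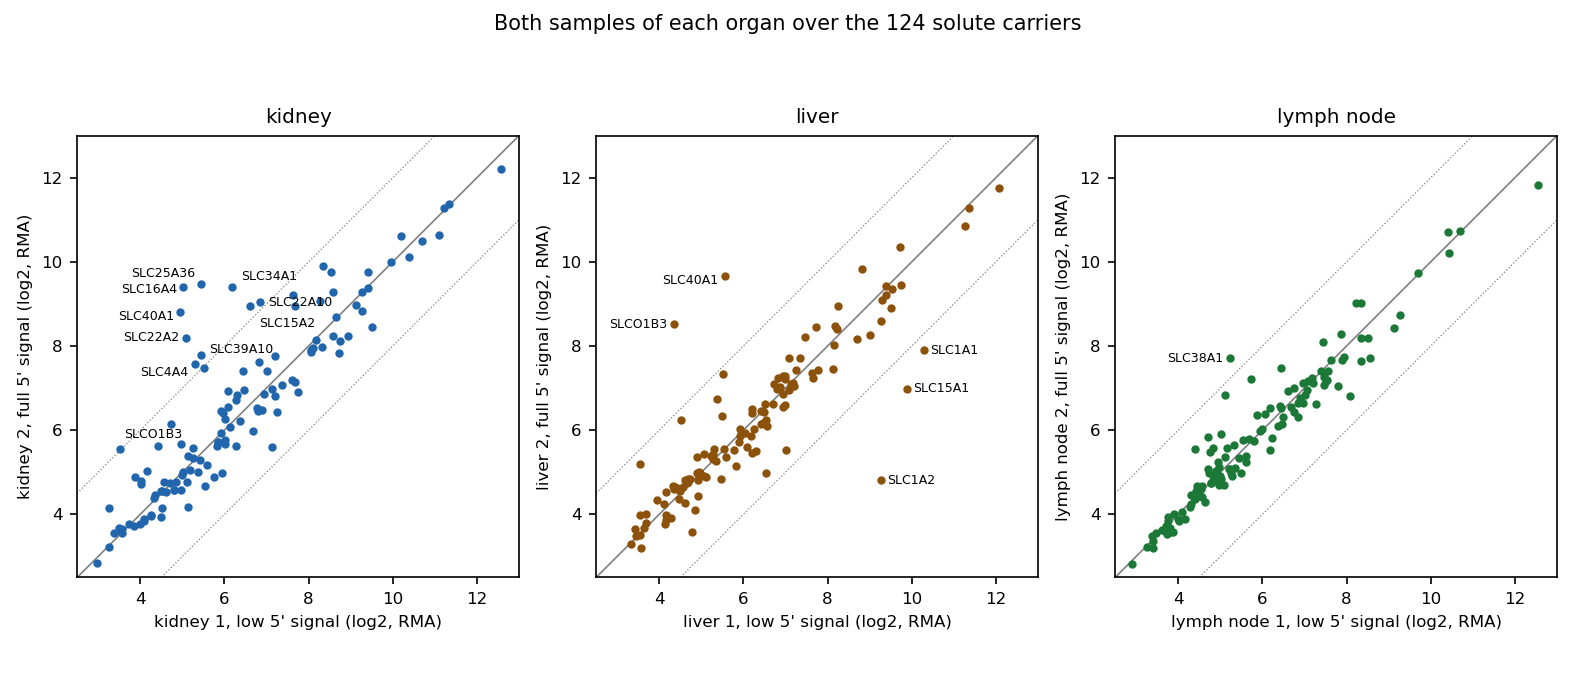
Log2 level of each of the 124 carriers in replicate 1 (x axis, low 5′ signal) and replicate 2 (y axis, full 5′ signal) of kidney, liver and lymph node, with the line of equality and dotted lines at a gap of 2. All 10 named kidney genes lie above the upper dotted line, liver has 3 genes below and 2 above the lines, and lymph node has 1 above.

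Of the 17 mitochondrial carriers 2 (11.8%, against 7.26% of all probe sets) were lower in tumors than in kidney and 0 higher, a share near the background. SLC25A5, the ADP/ATP carrier ANT2, had 8.69, 9.83 and 10.54 in tumors, against 11.34 and 11.38 in kidney (-1.61 ± 0.34, adjusted p = 0.00274). SLC25A33, a pyrimidine nucleotide carrier, had 6.59, 7.32 and 8.23 in tumors, against 9.28 and 8.84 in kidney (-1.65 ± 0.35, adjusted p = 0.00286). No tumor reached either kidney in these 2 genes. SLC43A2, the large neutral amino acid transporter LAT4, was lower by -1.44 ± 0.29, and the scaffold SLC9A3R1 by -2.65 ± 0.58. Leaving out either kidney took the call from each of these 4 genes (adjusted p between 0.0191 and 0.111). SLC2A4RG was lower by -2.48 ± 0.46 and lost its call without kidney 1 (adjusted p = 0.0536). Among tumors SLC2A4RG was higher by 1.22 ± 0.17 on arrays with low 5′ signal (adjusted p = 0.000413), so its level moved with the 5′ signal, whose part in the kidney difference was not tested.

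Only 3 carriers were higher in tumors than in kidney. SLC35B1, a nucleotide carrier of the endoplasmic reticulum, had 7.02, 7.73 and 8.32 in tumors, against 6.30 and 6.85 in kidney and 6.99 and 6.59 in liver. Every tumor was above both kidneys and both livers. The difference was 1.14 ± 0.21 against kidney (adjusted p = 0.000578) and 0.92 ± 0.21 against liver (adjusted p = 0.00354). SLC38A2, the neutral amino acid transporter SNAT2, had 8.74, 9.50 and 10.46 in tumors, against 8.71 and 7.84 in kidney (1.38 ± 0.32, adjusted p = 0.00588). SLC11A1, the metal transporter NRAMP1 of macrophage phagosomes, had 6.72, 7.14 and 7.71 in tumors, against 6.37 and 6.21 in kidney (0.81 ± 0.19, adjusted p = 0.00660). SLC11A1 averaged 7.16 in liver and 7.01 in lymph node, beside 7.10 in tumors. SLC38A2 averaged 8.61 in liver and 9.72 in lymph node, beside 9.66 in tumors. None of the 3 genes was called between tumors and lymph node. The mean level of the 4 measured of 5 macrophage and osteoclast markers was 8.24 to 11.6 in tumors and 6.32 to 7.03 in kidney. In liver it was 8.63 to 9.13 and in lymph node 8.37 to 8.95. The part of these markers in the SLC11A1 difference was not tested. Without kidney 1 the adjusted p of SLC35B1 was 0.0755, and without either kidney SLC38A2 and SLC11A1 lost their calls (adjusted p between 0.0103 and 0.221). Against liver SLC35B1 was lost without either liver (adjusted p of 0.0141 and 0.151).

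Among genes of bile acid handling and peptide uptake, SLC27A5, SLC10A1 and SLC15A1 were lower in tumors than in liver. SLC10A2 (-0.33), SLC15A2 (-0.21) and the peptide carrier SLC15A4 (0.34) were not called there. SLC27A5, the bile acid coenzyme A ligase of hepatocytes, had 4.30, 4.83 and 5.62 in tumors, against 12.08 and 11.74 in liver (-7.01 ± 0.27, adjusted p = 1.35e-14). SLC10A1, the sodium-bile acid cotransporter NTCP, had 4.2, 4.45 and 4.80 in tumors, against 11.36 and 11.29 in liver (-6.87 ± 0.13, adjusted p = 3.16e-20). For SLC10A1 kidney was at 4.81 and 4.59 and lymph node at 4.44 and 4.68, so liver alone stood apart, by 6.63 ± 0.17 from kidney and 6.77 ± 0.17 from lymph node. SLC15A1, the peptide transporter PEPT1, had 2.79, 3.02 and 3.73 in tumors, against 9.88 and 6.98 in liver (-5.29 ± 0.40, adjusted p = 2.26e-09). The livers differed by 2.90 in SLC15A1, yet both were far above every other sample, where kidney was at 2.96 and 2.84 and lymph node at 2.89 and 2.82. In the whole class of organic ion and bile acid carriers 5 of 16 (31.2%, against 9.28% of all probe sets) were lower in tumors than in liver and 0 higher.

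Amino acid carriers of the liver followed. SLC38A3, the glutamine transporter SNAT3 of liver and kidney, had 5.04, 5.25 and 5.51 in tumors, against 6.78 and 6.53 in kidney, 8.82 and 9.84 in liver and 5.6 and 5.25 in lymph node. It thus lay in 3 steps, with tumors and lymph node lowest. Its difference was -4.08 ± 0.18 for tumor minus liver (adjusted p = 1.08e-13), -1.41 ± 0.18 for tumor minus kidney (adjusted p = 6.30e-06) and -2.68 ± 0.23 for kidney minus liver (adjusted p = 3.27e-08). SLC6A11, annotated as the GABA transporter GAT3, had 3.29, 3.51 and 3.85 in tumors, against 7.34 and 7.72 in liver (-3.98 ± 0.14, adjusted p = 1.71e-15). Kidney at 3.53 and 3.61 and lymph node at 3.74 and 3.54 were within the tumor range. The name of this probe set marks probes shared by several transcripts, and its other probe set gave -3.14. SLC6A12, the betaine and GABA transporter BGT1, was lower in tumors than in liver (-1.77 ± 0.24) and than in kidney (-1.34 ± 0.24). Without liver 1 its difference from liver was -1.0, still called, and without kidney 1 its call against kidney was lost (adjusted p = 0.106).

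Several liver results rested on 1 of the 2 livers. SLC1A2, the glutamate transporter EAAT2, had 3.89, 4.38 and 5.96 in tumors, against 9.26 and 4.81 in liver. Liver 2 was thus within the tumor range, and the difference of -2.61 ± 0.63 (adjusted p = 0.00624) was -0.38 without liver 1 (adjusted p = 0.804) and had an adjusted p of 0.0110 with the organ number as a random block. The other probe set of SLC1A2 had 5.48 and 4.31 in liver 1 and liver 2. SLCO1B3, the hepatocyte organic anion carrier OATP1B3, had 3.15, 3.40 and 3.65 in tumors, against 4.35 and 8.52 in liver (-3.02 ± 0.57, adjusted p = 0.000641). Without liver 2 its difference was -0.93 (adjusted p = 0.174). SLCO1A2 had 3.06, 3.23 and 3.43 in tumors, against 3.55 and 5.19 in liver (-1.14 ± 0.21). Each group mean of SLCO1A2 was below 5, near the lower end of the scale. Without liver 2 its difference was -0.32 and its call was lost. SLC40A1, the iron exporter ferroportin, showed the same kind of gap in both organs without a call: it had 5.73, 6.50 and 8.55 in tumors, against 4.95 and 8.81 in kidney and 5.56 and 9.66 in liver. In all, 5 of 124 carriers (4.03%, against 2.11% of all probe sets) differed by more than 2 between the livers.

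**Figure D4:**
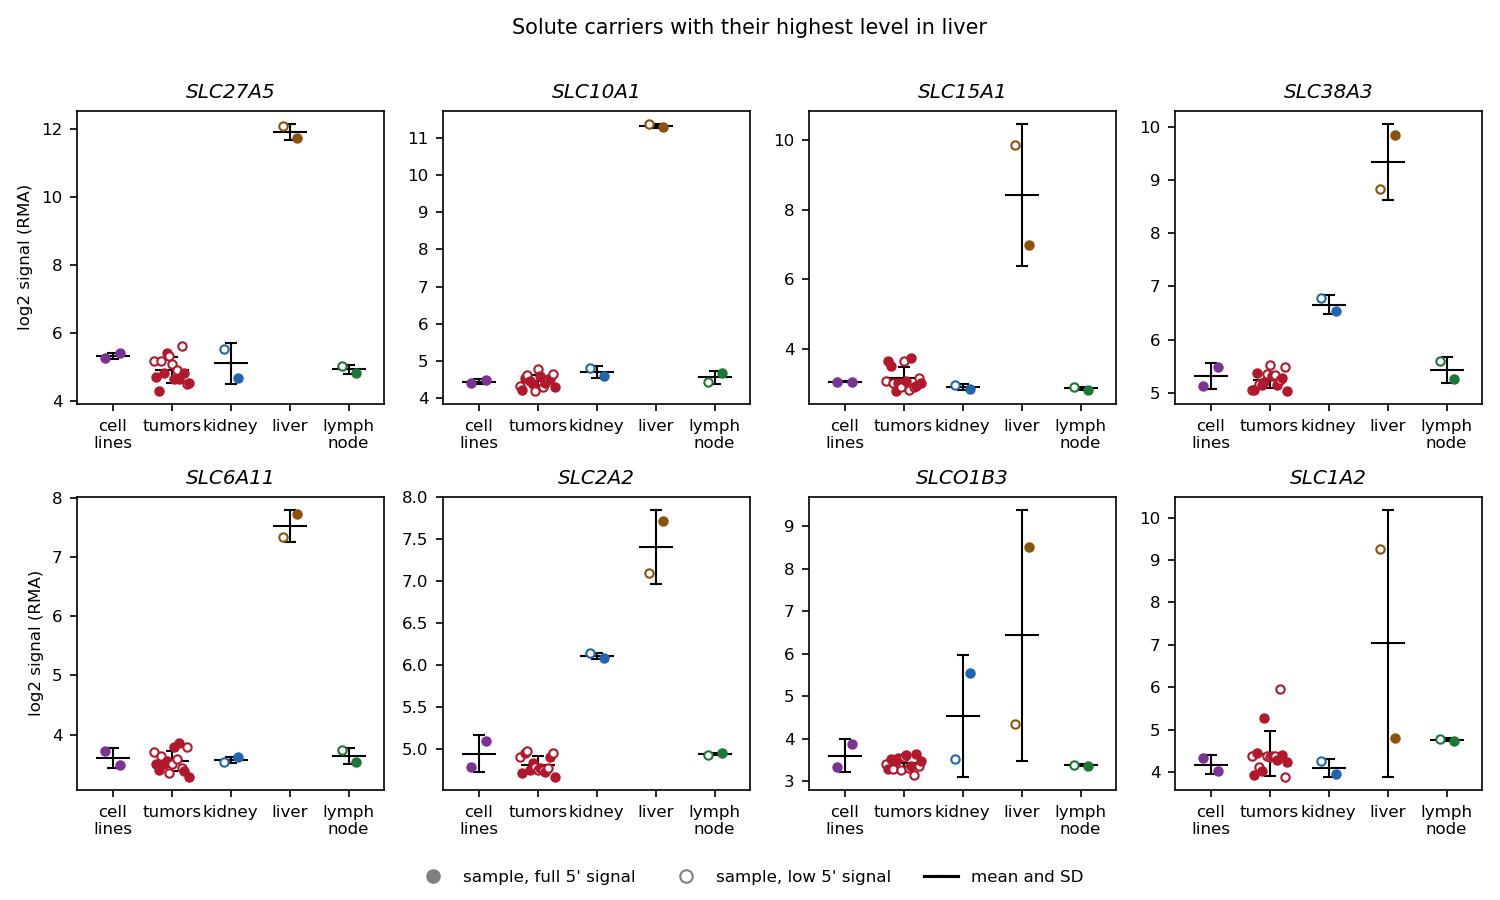
RMA log2 signal of 8 carriers (y axis, a scale of its own for each gene) in each sample of the 5 groups (x axis), with open circles for arrays with low 5′ signal and the mean and SD of each group in black. Both livers stand above every other sample for SLC27A5, SLC10A1, SLC15A1, SLC38A3, SLC6A11 and SLC2A2, whereas SLCO1B3 is at 8.52 in liver 2 and 4.35 in liver 1, and SLC1A2 at 9.26 in liver 1 and 4.81 in liver 2.

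Some carriers were lower in tumors than in kidney and also lower than in liver. SLC1A1, the glutamate and aspartate transporter EAAT3, had 3.48, 3.92 and 6.32 in tumors, against 11.22 and 11.28 in kidney, 10.28 and 7.90 in liver and 3.62 and 3.64 in lymph node. Its tumor minus kidney difference of -7.02 ± 0.59 (adjusted p = 1.89e-08) was the largest of any carrier in that comparison by its chosen probe set, and tumor minus liver was -4.86 ± 0.59 (adjusted p = 3.21e-06). Kidney and liver themselves were not called apart (2.15 ± 0.79, adjusted p = 0.145). SLC2A2, the glucose transporter GLUT2 through which both organs release glucose, had 4.67, 4.77 and 4.98 in tumors, against 6.14 and 6.08 in kidney, 7.09 and 7.72 in liver and 4.93 and 4.95 in lymph node. Here kidney was lower than liver by -1.29 ± 0.16 (adjusted p = 4.79e-06), and tumors were lower than kidney by -1.29 ± 0.12 and than liver by -2.59 ± 0.12 (adjusted p = 5.98e-08 and 2.73e-13). SLC37A4, the glucose-6-phosphate transporter of the endoplasmic reticulum, was lower in tumors than in kidney by -1.85 ± 0.25 (-1.21 without kidney 2) and than in liver by -2.17 ± 0.25. SLC22A18 was lower in tumors than in liver by -1.59 ± 0.15, close to its difference from kidney. SLC2A9, the urate transporter GLUT9, did not differ between kidney and lymph node past the threshold (0.71, adjusted p = 0.0450) and was lower in tumors than in liver (-1.57 ± 0.16, adjusted p = 3.53e-07). Its smaller difference from kidney (-0.66 ± 0.16, adjusted p = 0.00979) was lost in 18 of the 23 fits with 1 sample left out, kidney 1 and kidney 2 among them, with an adjusted p up to 0.286 and a difference of -0.43 without kidney 2.

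By their chosen probe sets tumors exceeded liver in 3 carriers, SLC35B1 among them. Another probe set of SLC38A2 was also called higher in tumors than in liver (1.52 ± 0.35, adjusted p = 0.00381). SLC66A3, of the PQ-loop family, had 8.01, 8.80 and 10.44 in tumors, against 6.50 and 6.62 in liver (2.28 ± 0.42, adjusted p = 0.000543). SLC39A10, the zinc importer ZIP10, had 7.41, 8.71 and 9.50 in tumors, against 5.49 and 6.33 in liver (2.81 ± 0.61, adjusted p = 0.00254). All 15 tumors were above both livers in both genes. Leaving out either liver took both calls (adjusted p between 0.0154 and 0.0993). Against kidney, at 5.44 and 7.78, SLC39A10 gave 2.11 and an adjusted p of 0.0262, and 14 of 15 tumors were above both kidneys. The metal carriers SLC41A2, a magnesium transporter, and SLC39A8, the zinc and manganese importer ZIP8, were lower in tumors than in liver. SLC41A2 had 6.75, 7.93 and 8.81 in tumors, against 9.71 and 10.36 in liver (-2.03 ± 0.45, adjusted p = 0.00291), and its call was lost without either liver (adjusted p of 0.0189 and 0.111). SLC39A8 (-0.64 ± 0.15) had -0.26 without liver 1, where its call was lost. Each group mean of SLC39A8 was below 5, near the lower end of the scale. The call of the peroxisomal carrier SLC25A17 (-1.37 ± 0.34) was lost in 10 of 23 fits with 1 sample left out, liver 1 and liver 2 among them.

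By their chosen probe sets tumors and lymph node differed in 4 carriers, all lower in tumors. Another probe set was called lower in tumors for SLC15A2 (-1.07 ± 0.13, adjusted p = 1.5e-05) and SLC25A38 (-0.55 ± 0.10, adjusted p = 0.000562). These 2 probe sets averaged 4.80 and 3.58 over all 23 samples. SLC66A3 had 8.01, 8.80 and 10.44 in tumors, against 10.69 and 10.73 in lymph node (-1.87 ± 0.42, adjusted p = 0.00671). It was thus lowest in liver, intermediate in tumors, kidney and cell lines, and highest in lymph node. SLC16A13, of the monocarboxylate family, had 6.14, 6.95 and 7.67 in tumors, against 9.12 and 8.98 in kidney and 8.57 and 7.72 in lymph node (tumor minus lymph node -1.28 ± 0.27, adjusted p = 0.00401). SLCO5A1, an orphan of the organic anion family, had 3.47, 3.86 and 4.82 in tumors, against 4.83 and 5.57 in lymph node (-1.21 ± 0.26, adjusted p = 0.00460). The highest tumor and the lower node of SLCO5A1 nearly touched. SLC9A9, the endosomal sodium-proton exchanger NHE9, had 3.86, 4.35 and 4.75 in tumors, against 5.26 and 4.98 in lymph node (-0.77 ± 0.17, adjusted p = 0.00566). All 15 tumors lay below both nodes in the 4 genes, and each call was lost without 1 of the nodes: without lymph node 1 the adjusted p of SLC16A13 was 0.249, without lymph node 2 that of SLCO5A1 was 0.305, and without either node those of SLC66A3 and SLC9A9 were between 0.0407 and 0.175. SLC22A17, the lipocalin-2 receptor, had 7.25, 9.0 and 9.80 in tumors, against 7.17 and 7.24 in lymph node and 7.20 and 7.05 in liver. Its differences of 1.55 ± 0.43 from lymph node and 1.63 ± 0.43 from liver missed the threshold (adjusted p = 0.0291 and 0.0116).

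Between cell lines and tumors 9 carriers were higher and 2 lower in the lines, and every one of these 11 calls was lost without cell line 1. SLC1A1 had 7.03 and 6.77 in cell lines, against 3.48, 3.92 and 6.32 in tumors (2.67 ± 0.59, adjusted p = 0.00506). SLC35A1, the Golgi CMP-sialic acid transporter, had 9.80 and 8.77 in cell lines, against 6.20, 7.18 and 7.80 in tumors (2.19 ± 0.32, adjusted p = 0.000134), and its other probe set gave 2.98. SLC4A11, of the bicarbonate transporter family, had 6.51 and 5.28 in cell lines, against 3.88, 4.31 and 4.84 in tumors (1.63 ± 0.26, adjusted p = 0.000325). In these 3 genes both lines lay above all 15 tumors. Of the 17 mitochondrial carriers 4 (23.5%, against 6.27% of all probe sets) were higher in the lines and 0 lower, and the class median was 0.75, beside -0.02 over all probe sets. SLC25A11, the oxoglutarate-malate carrier, had 8.63 and 9.05 in cell lines, against 6.56, 7.34 and 7.98 in tumors (1.53 ± 0.30, adjusted p = 0.00193). SLC25A5 had 11.43 and 11.09 in cell lines, against 8.69, 9.83 and 10.54 in tumors (1.51 ± 0.34, adjusted p = 0.00601). SLC25A12, the aspartate-glutamate carrier aralar, and SLC25A38, the glycine carrier of heme synthesis, were higher by 1.32 ± 0.29 and 1.30 ± 0.27. The level of both lines in SLC25A5 was near that of kidney, at 11.34 and 11.38.

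SLC6A12 was higher by 1.01 ± 0.24, with both lines above all tumors. SLC2A6, the lysosomal hexose transporter GLUT6, was higher by 1.13 ± 0.26, with 1 of 2 lines above all tumors. SLC43A2 had 5.76 and 5.71 in cell lines, against 6.68, 7.20 and 8.21 in tumors (-1.49 ± 0.29, adjusted p = 0.00214). SLC24A2, a potassium-dependent sodium-calcium exchanger, was lower by -0.54 ± 0.12. Apart from the 11, another probe set was called higher in the lines for SLC23A2 (1.42 ± 0.24) and SLC25A26 (0.97 ± 0.14). Without cell line 1 the fit called 1 carrier, which was not among the 11, and without cell line 2 it called 3, all among the 11. The highest adjusted p of a lost call was 0.283, for SLC2A6 without cell line 1. In that fit the differences of SLC2A6, SLC4A11 and SLC6A12 were 0.63, 1.02 and 0.67. In cell lines the macrophage and osteoclast markers averaged 6.22 to 6.61, against 8.24 to 11.6 in tumors, and the 2 measured of 3 endothelial markers 4.12 to 4.41, against 6.78 to 9.85 in tumors. The part of these cell types in the carrier differences was not tested. SLC39A10 showed how far the lines could differ from each other, with 8.45 in cell line 1 and 5.24 in cell line 2.

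**Figure D5:**
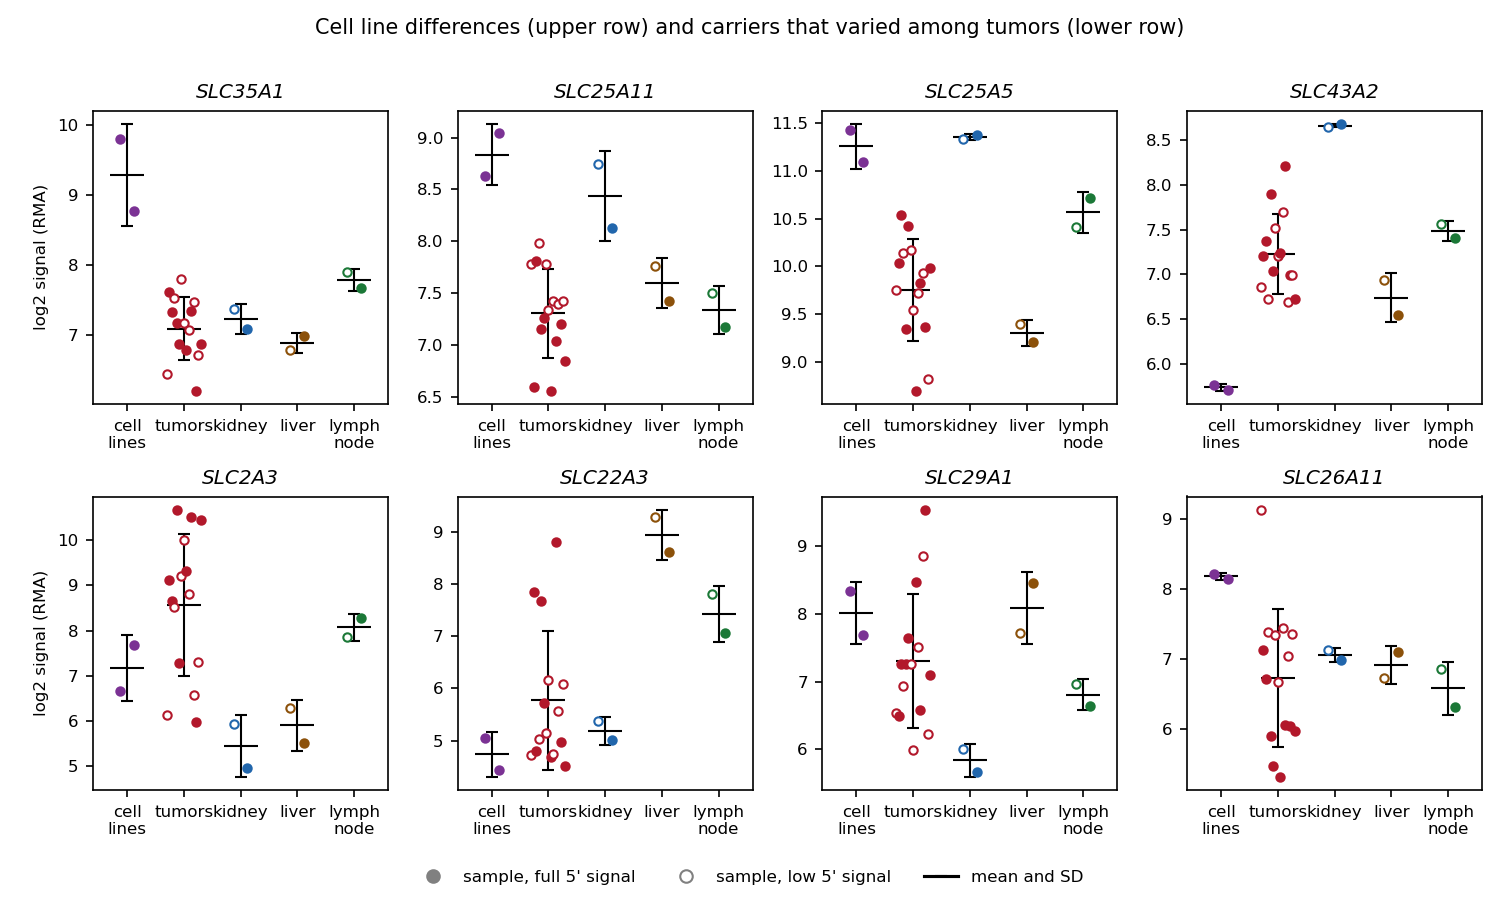
RMA log2 signal (y axis, a scale of its own for each gene) in each sample of the 5 groups (x axis) for 4 carriers that differed between cell lines and tumors (upper row) and 4 of the 6 carriers with the largest SD over the tumors (lower row), with open circles for arrays with low 5′ signal and the mean and SD of each group in black. Both cell lines lie outside the tumor range in the upper row, and SLC2A3 spans 5.97 to 10.67 among the tumors.

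Within the tumors the median SD was 0.32 over the 124 genes and 0.26 over all probe sets. These 2 sets are unlike. Each of the 124 genes was read from its probe set of highest mean, while all probe sets include 13149 without a symbol. Dim signals are compressed in these values, so the larger SD cannot be credited to the carriers as such. The organic ion carriers had a median SD of 0.19, whereas the 7 vitamin carriers had 0.78. The 6 carriers with the largest SD each came from a different class. SLC2A3, the high-affinity glucose transporter GLUT3, ranged from 5.97 in tumor 13 over a median of 8.80 to 10.67 in tumor 5 (SD 1.58). It was above both kidneys, at 5.93 and 4.97, in all 15 tumors, yet the difference of 3.12 ± 1.02 did not pass (adjusted p = 0.0525), and its other probe set gave 0.44. SLC22A3, the organic cation transporter OCT3, ranged from 4.52 to 8.81, with tumors 11 and 2 highest, against 9.28 and 8.60 in liver and 7.80 and 7.05 in lymph node. SLC29A1, the nucleoside transporter ENT1, which also carries nucleoside drugs, ranged from 5.99 in tumor 8 to 9.54 in tumor 13. SLC46A2 (4.39 to 7.73), SLC26A11, a sulfate and anion exchanger (5.32 to 9.13), and SLC35A3, the Golgi UDP-N-acetylglucosamine transporter (3.88 to 7.48), completed the 6.

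Of these 6 carriers SLC26A11 had the lowest adjusted p between tumors with low and full 5′ signal, with a mean of 7.48 on the 7 tumors with low and 6.08 on the 8 tumors with full 5′ signal (adjusted p = 0.0180). Over all carriers 3 of 124 were called between these 2 classes of tumors, against 3.18% of all probe sets, 2 of them higher at low 5′ signal (background 0.541%) and 1 lower (background 2.64%). The first were SLC2A4RG and SLC52A2, a riboflavin transporter (1.25 ± 0.27, adjusted p = 0.00988), and the other was SLC25A36 (-1.45 ± 0.25, adjusted p = 0.00225). SLC25A36 was also the mitochondrial carrier with the widest range of group means. It had 4.96, 6.57 and 8.04 in tumors, against 5.45 and 9.47 in kidney and 4.28 and 3.91 in liver, and the tumor minus liver difference of 2.39 had an adjusted p of 0.0409. SLC38A1, the glutamine transporter SNAT1, had 5.23 in lymph node 1 and 7.71 in lymph node 2, and its difference between tumors with low and full 5′ signal was -1.10 (adjusted p = 0.0108, not called).

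The glucose carriers differed from each other in how they divided among the groups. SLC2A1, the glucose transporter GLUT1, had 9.94 and 8.57 in cell lines, 7.12, 7.88 and 10.02 in tumors, 7.68 and 7.14 in kidney, 6.41 and 6.45 in liver and 6.96 and 7.12 in lymph node. All 15 tumors were above both livers, with a difference of 1.64 ± 0.58 that was not called (adjusted p = 0.0683). SLC2A2 ran the other way, with every tumor below both livers and both kidneys. Of the 9 hexose carriers 2 (22.2%) were lower in tumors than in kidney, against 5.26% of all probe sets. Likewise 2 (22.2%) were lower than in liver, against 5.86%. SLC2A2 and SLC2A9 were the 2 in each case, and 0 were higher in either. The call of SLC2A9 against kidney was not stable when samples were left out, and its other probe set had the opposite sign. SLC2A6 was the only 1 of the 9 hexose carriers called between cell lines and tumors (11.1%, against 6.27% of all probe sets).

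Other carriers were even across the samples. Among genes with a mean above 7, the smallest range of group means was that of SLC4A2, the chloride-bicarbonate exchanger AE2 (0.30), followed by SLC35C1, the Golgi GDP-fucose transporter (0.40), SLC6A6, the taurine transporter (0.86), and SLC9A3R2 (0.87). SLC6A6 was even between groups but not among tumors, which ranged from 7.60 to 10.41. None of the 4 was called in any of the 7 comparisons. The name of the SLC4A2 probe set marks probes that may also bind other transcripts. In 19 of the 124 genes every group mean was below 5, near the lower end of the scale, where array values say little about a difference. Among the other 105, the highest group mean lay in kidney for 35, in cell lines for 26, in liver for 24, in lymph node for 13 and in tumors for 7. The tumor mean is over 15 samples and each other mean over 2. Means of 2 samples scatter more and can more easily be the highest. The same count was not made over all probe sets, so these numbers do not describe carriers alone. The classes of nucleoside, phosphate, vesicular transmitter and vitamin carriers hold 3, 2, 4 and 7 genes. By their chosen probe sets 0 of these genes were called in any of the 7 comparisons. In so few genes this says little, as 3.81% to 9.28% of all probe sets were called per comparison. SLC18B1, a vesicular polyamine transporter, had the widest range in the vesicular class, with 5.49, 6.91 and 7.64 in tumors, against 8.11 and 7.95 in kidney (-1.35 ± 0.46, not called).

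Proteins that drive or hold carriers were read as a list of 17 gene symbols, of which 8 were measured under the symbol listed. NHERF1 is on that list but was measured as the member SLC9A3R1 above, so it is not among the 8. Between tumors and kidney 5 of the 8 were lower, against 5.26% of all probe sets, and 1 higher, against 2.0%. CLTRN, the partner of brush border amino acid carriers, was lower by -8.46 (adjusted p = 2.40e-20), PDZK1, an apical scaffold, by -7.35, and FXYD2, a regulator of the sodium pump, by -5.59. The carbonic anhydrase CA2 and the pump subunit ATP1B1 were lower by -4.25 and -3.39. The pump subunit ATP1B3 was higher in tumors than in kidney (2.33) and than in liver (2.82). Between tumors and liver 2 of the 8 were lower, CLTRN (-5.31) and PDZK1 (-4.44), against 5.86% of all probe sets. Only ATP1B3 was higher there, against 3.42%. Between tumors and lymph node 0 of the 8 passed, which says little beside a share of 4.24% over all probe sets. Of the 8 genes 1, ATP1B1, was higher in cell lines than in tumors (2.69, adjusted p = 0.00363), against 3.77% of all probe sets.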

How the data were processed

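Labels placed the 23 samples in 5 groups. The authors hybridized total RNA to canine arrays and deposited log2 values made by robust multi-array averaging (RMA, in affy per the labels; versions not given in the sources used here), which normalizes quantiles and compresses dim signals. Of 23913 probe sets, 77 controls were set aside and 23836 tested; the annotation gave 1 symbol for 10549, several for 138 and none for 13149. Probe sets with several symbols named no gene. Of 126 solute carrier genes (192 probe sets) the 2 named in the report were left out. Entrez IDs of 121 of the 124 matched the RefSeq gene table of UU_Cfam_GSD_1.0; the array's own genome build is not given in the sources used here, so neither coordinates nor sequences are printed. An array gives no depth: the number of arrays limits precision.

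A model of the 5 groups was fitted by limma 3.58.1 in R 4.3.3 (lmFit, eBayes, two-sided), with Benjamini-Hochberg adjustment over 23836 probe sets and a threshold of 0.01. The fit was tested on simulated data. Values are given to 2 decimals, differences with the SE of the fit. Organ numbers were taken as pairs, because deviations of equal numbers correlated in every pair over all probe sets (r = 0.61, 0.60 and 0.53). Over the 124 genes r was lower, at 0.38, 0.43 and 0.23. The arrays numbered 1 all had low 5′ signal. Named genes were the 3 markers SLC5A12, SLC3A1 and SLC2A2, up to 6 called genes with the largest difference per comparison and direction, the widest gene of each class of at least 3, the 6 most variable in tumors and the 4 most even with a mean above 7; others are named where 1 sample or probe set decided a value, or with their subfamily. Genes, classes and lists were chosen with earlier results of these data known. Alternatives were centring of arrays, an intensity trend, the 5′ index as a covariate, a filter on dim probe sets, replicate blocks, averaged probe sets, 2 groups alone, a threshold of 0.05 and leaving out each sample; added after the data were seen were fits on arrays with full or low 5′ signal only.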

Additional observations from a re-analysis of the deposited data

How the results depend on the processing

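The counts of carriers called between tumors and kidney (30) and between tumors and liver (22) stayed within 1.5 times of these values in every fit, at 23 to 32 and 15 to 24 with 1 sample left out. The 4 calls between tumors and lymph node became 1 with the 2 groups alone, 0 on arrays with full 5′ signal and 0 on arrays with low 5′ signal, and 1 to 5 with 1 sample left out (1 without either node). Kidney minus liver (21) gave 5 with the 2 groups alone, 12 on arrays with low 5′ signal and 19 to 25 with 1 sample left out. Kidney minus lymph node (20) gave 4 with the 2 groups alone, 13 on arrays with low 5′ signal, 32 at a threshold of 0.05 and 15 to 22 with 1 sample left out. Liver minus lymph node (17) gave 4 with the 2 groups alone, 10 on arrays with low 5′ signal and 12 to 17 with 1 sample left out. Cell lines minus tumors (11) gave 18 at a threshold of 0.05 and 1 to 12 with 1 sample left out, the 1 without cell line 1 being none of the 11. The 3 carriers called by 5′ signal among tumors became 7 at a threshold of 0.05, 5 after the filter on dim probe sets and 5 without tumor 9, in a range of 2 to 5. With the organ number as a random replicate block kidney minus lymph node gave 32, and as a fixed replicate block in the 6 organ samples kidney minus liver gave 11 and kidney minus lymph node 12. The random block kept 29 of the 30 tumor minus kidney calls, 21 of the 22 tumor minus liver calls and all of those of the other 5 comparisons. The fixed block, with few degrees of freedom, took 12 of the 30 organ calls of genes named by the rule.

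Of 60 calls of genes named by the rule all 60 held with arrays centred, with the 5′ index as a covariate, with the dim filter and with the random block, and 0 changed sign in any fit listed here. An intensity trend lost 2 and averaged probe sets lost 3, while 24 were lost in at least 1 fit with a sample left out and 23 with the 2 groups alone. On arrays with full 5′ signal 20 of 60 were lost and on arrays with low 5′ signal 14 of 52, where each organ has 1 sample assumed to vary like the other groups. Genes whose probe sets sit far from the 3′ end cannot be judged on arrays with low 5′ signal, and probe sets near background give differences that are too small.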
